A study of Mus musculus with 16 samples.

Results

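RNA levels in somatic cells of the normal fetal mouse testis were compared between the embryonic days E13.5 and E15.5. The comparison rests on 8 of the 16 libraries of the series, chosen by genotype and age in the labels: 4 wild-type (WT) libraries at E13.5 and 4 at E15.5. The other 8 libraries come from knockout (KO) animals without Inhba, the gene of the activin A subunit, and enter at the end, where the age change of the genotypes is compared. All animals, on a C57/Bl6/129svJ background, carried an Oct4-GFP reporter, which labels germ cells. Per the labels, paired gonads were separated from the mesonephros, and viable cells without GFP were collected by flow sorting, so each library mixes all somatic cell types of the testis. The labels give 3 to 4 individual animals for each age and genotype. Since each group has 4 libraries, an animal may have given more than 1, in which case the p-values are too small. The library titles all carry different numbers, but whether each number stands for a different animal was not tested.

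In the fetal testis, Sertoli cells enclose the germ cells in cords, secrete anti-Müllerian hormone and send signals such as desert hedgehog and FGF9. Fetal Leydig cells lie between the cords and make androgens from cholesterol, with Sertoli cells supplying a last step through Hsd17b3. Flattened peritubular myoid cells, stromal progenitors, vessels and resident macrophages make up the rest, and within days of cord formation these types expand and mature together.

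Total counts were 17118853 to 23324810 per library. In a principal component analysis of the 2000 most variable genes, the first component (57.0% of the variance) separated the ages without overlap. Along the second (12.8%) WT E15.5 replicate 3 stood apart, and its mean correlation with its own age was the lowest of the 8 (0.973). This library and WT E13.5 replicate 4 had the highest summed level of 32 immediate early and dissociation stress genes (8564 and 9412 CPM, counts per 1000000 counts, against 2532 to 3844 CPM in the other 6). The main results that rest on either library are also given without both. Germ cell markers summed to 50.3 to 63.7 CPM at E13.5 and 57.3 to 77.4 CPM at E15.5, of which Kit, which other cells share, made up 36.8 CPM at E13.5 and 34.3 CPM at E15.5 on average. Without Kit they took 17.7 to 23.4 of each 1000000 counts at E13.5 and 34.4 to 38.6 at E15.5, with no overlap. Of 26 germ cell genes 12, among them Pou5f1, Nanog and Nanos2, were too low to test. Sry, the testis-determining gene whose burst of expression precedes these ages, was also too low to test and was at 0.169 to 0.479 CPM at E13.5 and at 0 in 3 of the 4 E15.5 libraries.

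Of 19032 genes tested with edgeR's quasi-likelihood test, 2354 were called higher at E15.5 (12.4%) and 2206 lower (11.6%), where called means a Benjamini-Hochberg adjusted p under 0.05. A change of at least 2-fold was reached by 971 of the higher genes (5.10% of those tested) and by 410 of the lower (2.15%). The median log2 fold change of all tested genes was 0.01, and in 5054 genes (26.6%) the values of the ages did not overlap. Counts depend on the libraries: leaving out WT E15.5 replicate 1 gave 1532 higher genes, and leaving out WT E13.5 replicate 3 gave 1464 lower. The kinds of gene also differed by direction. Of 1088 loci annotated as TEC, which await experimental evidence, 344 were called higher and 6 lower, and of 151 sense intronic transcripts 50 were higher and 1 lower, while among 14418 protein-coding genes 1672 were higher and 2047 lower. These loci with antisense transcripts took 0.697% to 0.945% of counts at E13.5 and 0.941% to 1.37% at E15.5. With protein-coding genes in 5 equal groups by GC content, the group lowest in GC had 18.5% called higher and 6.08% lower, and the group highest in GC 6.01% and 24.7%. The part of these properties in any single gene's change was not tested. With an offset for GC content added to the fit, 2125 genes were called higher (11.2%) and 1966 lower (10.3%), and 3375 of the 4560 calls were kept.

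**Figure D1:**
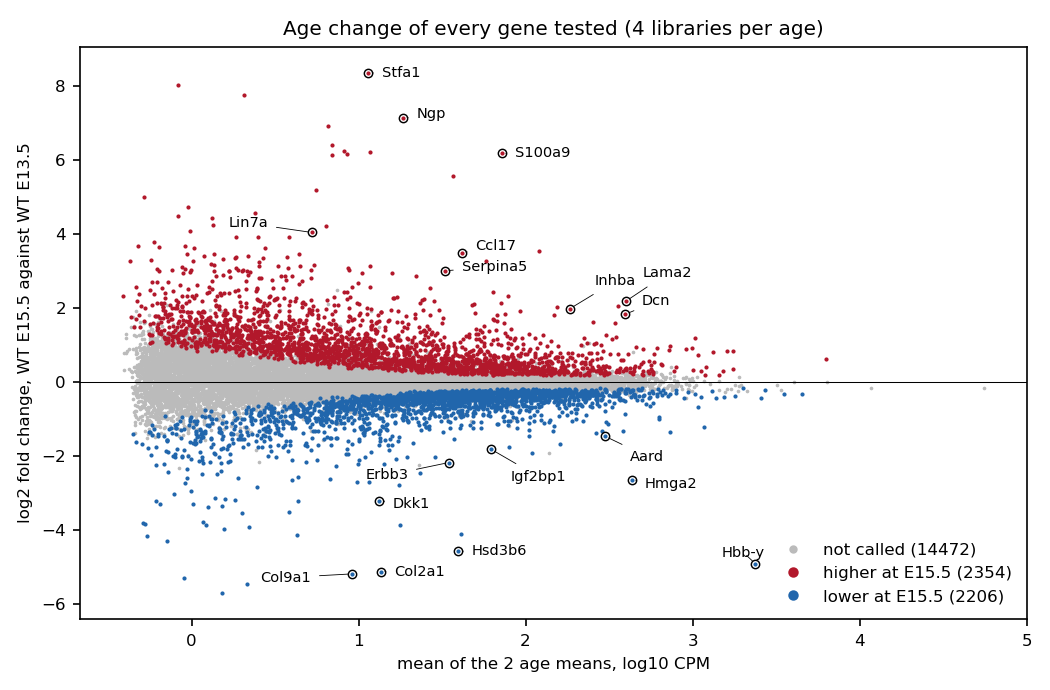
Each point is 1 of 19032 genes. The horizontal axis is the mean of both age means in log10 CPM, and the vertical axis is the log2 fold change of WT E15.5 over WT E13.5. Red points are the 2354 genes called higher, blue points the 2206 called lower and grey points the 14472 not called. Ngp and Stfa1 lie highest among the named genes, and Hmga2 lies low for its abundance.

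Among the 6 decreases with the smallest p were Hmga2 and Igf2bp1, regulators of fetal growth. Hmga2, an architectural chromatin protein of embryonic cells (chromosome 10, 120361275 to 120476469, minus strand), stood at 845, 663, 701 and 772 CPM at E13.5 and 96.0, 131, 118 and 126 CPM at E15.5. All E15.5 libraries were below all E13.5 libraries, with a fitted fold of 6.32 (log2 fold change -2.66 ± 0.11, adjusted p = 8.5e-07). Igf2bp1, an RNA-binding protein that stabilises growth transcripts (chromosome 11, 95957163 to 96005940, minus strand), stood at 99.8, 93.8, 99.5 and 93.9 CPM at E13.5 and 23.2, 25.8, 29.0 and 31.6 CPM at E15.5 (log2 fold change -1.82 ± 0.10, adjusted p = 4.6e-06). Lin28b, the RNA-binding protein that blocks maturation of let-7 miRNAs, was lower throughout, at 6.38, 4.23, 5.13 and 6.47 CPM at E13.5 and 1.70, 1.71, 1.87 and 1.54 CPM at E15.5 (log2 fold change -1.70 ± 0.20, adjusted p = 0.00034). The transcriptional repressor Hic2 fell from 33.3 ± 2.25 to 20.3 ± 2.74 CPM (mean ± SD, n = 4 each; log2 fold change -0.72 ± 0.11, adjusted p = 0.0011) and Igf2bp2, a relative of Igf2bp1, from 257 ± 5.73 to 186 ± 10.1 CPM (-0.47 ± 0.06, adjusted p = 0.00058). Here and below, a pair of means gives E13.5 first, and a bracketed value with ± is a log2 fold change with its SE. In the whole list of 22 fetal timing genes, 19 were tested, 2 were called higher (10.5%) and 8 lower (42.1%), with a median of -0.23. Over all genes 12.4% were higher and 11.6% lower. The imprinted zinc finger gene Plagl1 rose from 306 ± 35.4 to 520.1 ± 92.5 CPM (0.76 ± 0.13, adjusted p = 0.0025), while Plag1 (log2 0.17 ± 0.07) and Mycn (-0.22 ± 0.14) did not pass. The other increase was Sall4, which germ cells also express and which stood at 0.0479 to 0.171 CPM at E13.5 and 0.833 to 1.46 CPM at E15.5.

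The transcripts Hmga2, Igf2bp1, Lin28b and Hic2 are known targets of the let-7 miRNAs, whose rise marks the end of the fetal programme in many tissues. The let-7 family shares a seed, bases 2 to 8 of the mature RNA, shown in capitals for representative members from RefSeq (GRCm38.p6); in all, 11 distinct mature sequences of 13 genes carry it:
mmu-let-7a-5p: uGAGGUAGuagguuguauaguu
mmu-let-7b-5p: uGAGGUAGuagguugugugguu
mmu-let-7g-5p: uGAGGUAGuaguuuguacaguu
mmu-let-7i-5p: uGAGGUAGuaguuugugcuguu
mmu-miR-98-5p: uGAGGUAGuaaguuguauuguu
The reverse complement of the seed, CTACCTC, was searched on the sense strand of the longest annotated 3′ UTR of each gene, 14227 in all. Each of the 4 transcripts holds 4 matches. The first match of each is shown 5′ to 3′ with the seed match in capitals, to set against the miRNAs above:
Hmga2 (chr10:120364219-120364246, minus strand): gccgacattcaatttCTACCTCagcatc
Lin28b (chr10:45381017-45381044, minus strand): acccgggcgggaagtCTACCTCatgcaa
Igf2bp1 (chr11:95961773-95961800, minus strand): gctgtgcgaagtaaaCTACCTCaaggtg
Hic2 (chr16:17259369-17259396, plus strand): gtgctggtgactattCTACCTCcctggg
The matches were looked for after these values were seen, so the following shares are a description. Of 12544 genes without a match, 13.9% were called lower. With 1 match it was 233 of 1455 genes, with 2 matches 41 of 196 (20.9%), with 3 matches 5 of 20 and with 4 or more 5 of 12 (41.7%). The median 3′ UTR length rose over the same groups from 1236 bases with no match to 4354 bases with 4 or more, and its part in these shares was not tested. The median log2 fold change moved little, at -0.04, -0.05, -0.08, -0.08 and -0.02. Of the 12 genes with 4 or more matches, Hmga2, Igf2bp1, Lin28b, Hic2 and D10Wsu102e were called lower, Trim6 was called higher and 6 were not called. The first 4 had prompted the search, and the matches of D10Wsu102e lie in an annotated 3′ UTR of 122583 bases. The last group includes Nr6a1, a germ cell nuclear factor with 8 matches (log2 fold change -0.05 ± 0.16), and Trim71 (0.55 ± 0.31). Mature miRNAs were not measured in these libraries. The let-7g precursor locus, Mirlet7g, was near the floor, with means of 0.560 to 0.576 CPM and a log2 fold change of 0.00 ± 0.50.

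**Figure D2:**
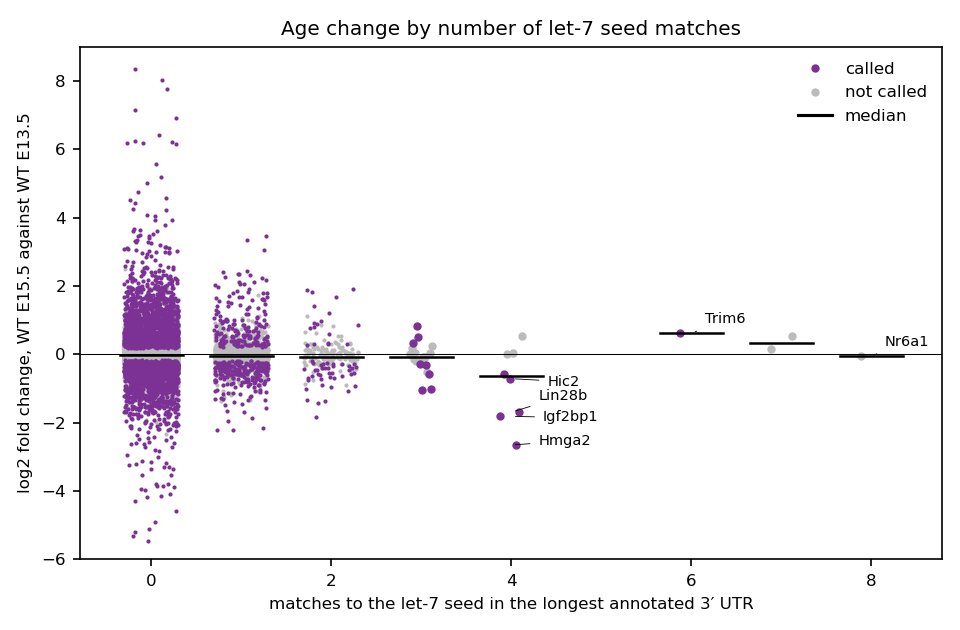
The log2 fold change of each gene is plotted against its number of let-7 seed matches in the longest annotated 3′ UTR, with called genes in purple, other genes in grey and a line at each median. At 4 matches Hmga2, Igf2bp1, Lin28b and Hic2 lie below 0, while Trim6 with 6 lies above and Nr6a1 with 8 near 0.

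Insulin-like growth factors and imprinted genes changed in both directions. Igf1, the growth factor that takes over from Igf2 as development proceeds, rose from 125 ± 2.52 to 385 ± 107 CPM (log2 fold change 1.63 ± 0.17, adjusted p = 0.00017), while Igf2 was at 1302, 1338, 1359 and 1273 CPM at E13.5 and 729, 819, 794 and 959 CPM at E15.5 (log2 fold change -0.68 ± 0.08, adjusted p = 0.00034). Its imprinted neighbour H19, a noncoding RNA, was at 771, 883, 869 and 802 CPM at E13.5 and 344, 474, 454 and 454 CPM at E15.5 (log2 fold change -0.95 ± 0.10, adjusted p = 0.00017). Other imprinted genes with lower levels at E15.5 were Peg10, a retrotransposon-derived gene (846 to 419 CPM, log2 -1.01 ± 0.13) and the cell cycle inhibitor Cdkn1c (175 to 81.2 CPM, -1.11 ± 0.16). Of 30 imprinted genes tested, 5 were called higher (16.7%) and 8 lower (26.7%), against 12.4% and 11.6% of all genes, with a median of -0.10. Dcn, decorin, whose imprinting is known from placenta, was the largest increase among the imprinted genes. Mest and Grb10, both abundant, did not pass (-0.22 ± 0.10 and -0.12 ± 0.07). H19 and Igf2 overlap other annotated genes, and counts that ignore strand cannot assign those reads.

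Many early Sertoli genes were lower at E15.5, and several genes of Sertoli maturation were higher. Of 23 tested genes of the identity list, 11 were called lower and 2 higher, with a median of -0.38. Without WT E13.5 replicate 4 and WT E15.5 replicate 3 14 were lower, where the background was 12.4% lower. Sox9, the transcription factor that fixes the Sertoli fate (chromosome 11, 112782224 to 112787760, plus strand), was at 236, 171, 229.7 and 201 CPM at E13.5 and 103, 114, 133 and 89.1 CPM at E15.5. The ages did not overlap (log2 fold change -0.93 ± 0.13, adjusted p = 0.00088). Amh, anti-Müllerian hormone, was at 239.9, 172, 216 and 199 CPM at E13.5 and 55.6, 89.0, 131 and 84.3 CPM at E15.5, with the spread at E15.5 the wider relative to its mean (log2 fold change -1.20 ± 0.21, adjusted p = 0.0026). Dhh, the hedgehog ligand sent to Leydig and myoid cells, was at 130.1, 86.4, 121 and 128 CPM at E13.5 and 63.7, 65.5, 77.6 and 55.9 CPM at E15.5 (log2 fold change -0.83 ± 0.14, adjusted p = 0.002). Further decreases were Aard, a gene of early Sertoli cells (439 to 159 CPM, -1.47 ± 0.20), the transcription factors Wt1 (308 to 193 CPM, -0.68 ± 0.09), Sox10 (15.48 to 6.08 CPM, -1.35 ± 0.13) and Nr0b1 (19.2 to 8.44 CPM, -1.19 ± 0.22), and Fgf9 (20.1 to 9.01 CPM, -1.15 ± 0.18), with adjusted p from 0.00012 to 0.004. Cst9 and Ptgds, the prostaglandin D synthase, stayed short of the threshold (-0.38 ± 0.15 and -0.19 ± 0.14). The called increases were Mro and Pdgfa, and both calls were lost in 9 or 10 of 19 alternative fits. In such mixed samples, fewer cells of a type and less RNA per cell cannot be told apart.

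Members of the maturation list were called in both directions. Of 32 tested, 12 were called higher and 6 lower, and 14 had a log2 fold change above 0 (median -0.16). Fshr, the receptor for follicle-stimulating hormone, rose from 2.66 ± 0.160 to 14.5 ± 3.67 CPM (2.44 ± 0.19, adjusted p = 3.9e-05). Hsd17b1, a steroid reductase, was at 5.53, 7.18, 4.69 and 4.67 CPM at E13.5 and 21.1, 28.4, 34.6 and 23.9 CPM at E15.5 (log2 fold change 2.28 ± 0.19, adjusted p = 5e-05), and Hsd17b3, which converts androstenedione to testosterone, at 119, 121, 131 and 152 CPM at E13.5 and 239, 207, 281 and 177 CPM at E15.5 (log2 fold change 0.79 ± 0.13, adjusted p = 0.0023). Serpina5, a serine protease inhibitor, rose from 7.24 ± 2.99 to 58.5 ± 15.47 CPM (3.01 ± 0.27, adjusted p = 7.7e-05). Cst12, a cystatin, rose from 1.80 ± 0.455 to 15.48 ± 3.08 CPM (3.09 ± 0.22, adjusted p = 2.3e-05) and the beta-defensin Defb36 from 1.03 ± 0.621 to 6.03 ± 1.17 CPM (2.53 ± 0.35, adjusted p = 0.00076). Decreases in the same list included Cldn11, a tight junction protein of the later blood-testis barrier, at 14.99, 9.12, 13.3 and 14.7 CPM at E13.5 and 2.08, 4.87, 6.31 and 4.08 CPM at E15.5 (log2 fold change -1.59 ± 0.29, adjusted p = 0.0032), and Shbg, the sex hormone-binding globulin (32.4 to 16.6 CPM, -0.96 ± 0.14). Inha, the inhibin alpha subunit, and Gja1, the gap junction protein connexin 43, did not pass (0.47 ± 0.23 and 0.12 ± 0.10). The wider family of cystatins and beta-defensins had 10 of 24 genes tested, 4 called higher and 2 lower. In the Rhox homeobox cluster only Rhox8 (23.9 to 15.7 CPM) and Rhox5 (0.967 to 0.926 CPM) were high enough to test. The call of Rhox8 (adjusted p = 0.024) was lost in 5 of 19 alternative fits.

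**Figure D3:**
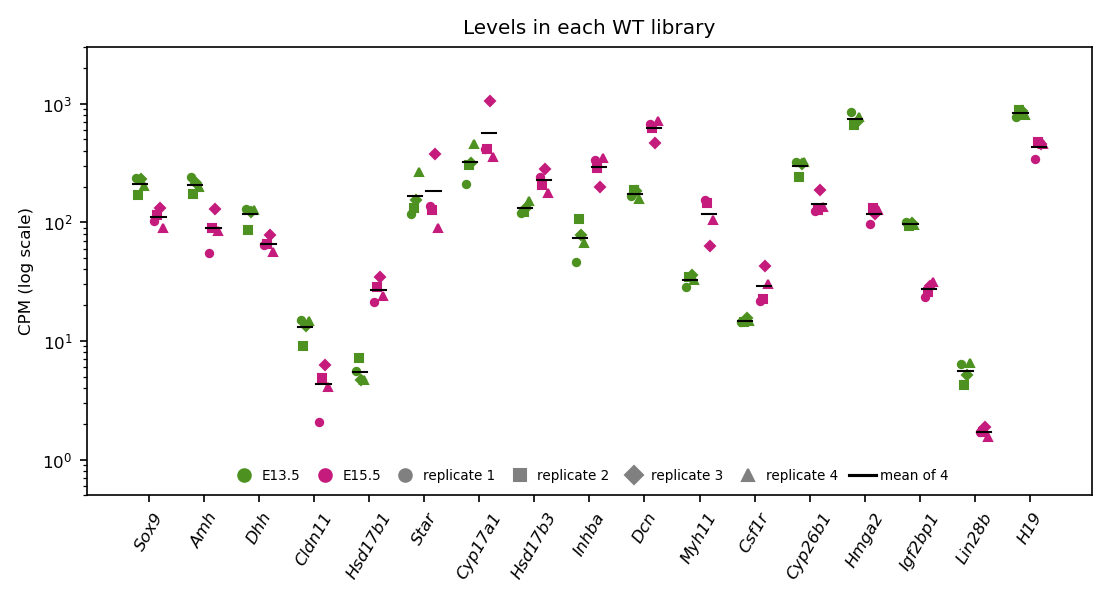
The level of 17 genes in each of the 8 WT libraries is plotted in CPM on a log axis, E13.5 in green and E15.5 in magenta, with a symbol for each replicate and a line at each mean of 4. All E15.5 points lie below the E13.5 points in Sox9, Amh and Hmga2 and above them in Inhba and Dcn, while in Star and Cyp17a1 WT E15.5 replicate 3 lies above the rest.

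Fetal Leydig markers were called in both directions. Of 28 tested, 4 were higher (14.3%) and 6 lower (21.4%), against 12.4% and 11.6% of all genes, with a median of 0.10. The main steroidogenic transcripts were highest in 1 library. Star, which carries cholesterol into mitochondria, was at 118, 131, 153 and 264 CPM at E13.5 and 137, 127, 378 and 90.1 CPM at E15.5. Cyp11a1, which cuts the cholesterol side chain, was at 88.2, 150.3, 152 and 209 CPM at E13.5 and 159.5, 206, 596 and 212 CPM at E15.5. Cyp17a1, the next cytochrome P450 toward androgens, was at 212, 302, 315 and 459 CPM at E13.5 and 415, 417, 1059 and 352 CPM at E15.5. Lhcgr, the receptor for luteinizing hormone, was at 47.0, 59.2, 65.3 and 76.0 CPM at E13.5 and 64.2, 67.6, 146 and 56.0 CPM at E15.5. In all 4 genes WT E15.5 replicate 3 was the highest library, and none was called (adjusted p = 0.84, 0.094, 0.11 and 0.28). The other E15.5 libraries overlapped with those of E13.5, in Cyp11a1 and Cyp17a1 through WT E13.5 replicate 4 alone. Without both libraries the log2 fold change of Star was -0.19 (adjusted p = 0.37), that of Cyp11a1 0.55 (adjusted p = 0.054) and that of Lhcgr 0.12 (adjusted p = 0.52), while Cyp17a1 was then called, at 0.50 (adjusted p = 0.022). Cyp11a1 was called in the fits on 15 libraries and with no filter on low counts (adjusted p = 0.042 in both). Hsd3b1, which makes the delta-4 steroids, went from a mean of 505 to 534 CPM (0.08 ± 0.31). The summed level of the list was 2784 to 2981 CPM in 3 E15.5 libraries and 5547 CPM in replicate 3, against 2322 to 3738 CPM at E13.5. Without WT E13.5 replicate 4 and WT E15.5 replicate 3 the list had 5 genes higher, 11 lower and a median of -0.22. Over all genes that fit had 11.9% higher and 12.4% lower. Insl3, the Leydig hormone of testis descent, was at 4.67, 4.71, 6.99 and 4.84 CPM at E13.5 and 1.64, 5.50, 12.3 and 7.07 CPM at E15.5 and lies within Jak3 on the same strand, so its reads can be shared.

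Single genes of the Leydig list did change. Hsd3b6, an isoform of 3-beta-hydroxysteroid dehydrogenase, was at 43.1, 34.3, 32.8 and 193 CPM at E13.5 and 0.274, 0.583, 6.95 and 5.17 CPM at E15.5. WT E13.5 replicate 4 was the highest, and every E15.5 library was below every E13.5 library (log2 fold change -4.58 ± 0.85, adjusted p = 0.0037). DESeq2 gave no adjusted p for it, and without WT E13.5 replicate 4 and WT E15.5 replicate 3 the log2 fold change was -4.21 (adjusted p = 0.0012). The embryonic globin Hba-x had a similar profile, at 44.8, 32.3, 37.9 and 194 CPM at E13.5 and 0.109, 1.04, 13.3 and 4.08 CPM at E15.5. Which cells held the Hsd3b6 RNA was not tested. Thbs2, a matricellular protein, rose from 8.59 ± 1.05 to 38.1 ± 12.5 CPM (2.15 ± 0.23, adjusted p = 0.00019) and Prlr, the prolactin receptor, from 105 ± 15.8 to 207 ± 14.2 CPM (0.98 ± 0.11, adjusted p = 0.0002). Ppargc1a, a coactivator of mitochondrial genes (36.5 to 16.01 CPM, -1.19 ± 0.13), the proprotein convertase Pcsk6 (96.7 to 51.3 CPM, -0.91 ± 0.16) and the ACTH receptor Mc2r (9.37 to 4.47 CPM, -1.08 ± 0.27) fell. Over the steroid enzyme list, 24 genes were tested, 2 were called higher (Hsd17b1 and Hsd17b3) and 4 lower (median -0.04), against 4 and 6 without both libraries (median -0.22). The shares over the 8 libraries, 8.33% higher and 16.7% lower, compare with 12.4% and 11.6% of all genes. Hsd11b2, which inactivates glucocorticoids, was 1 of the lower genes (105 to 50.6 CPM, -1.06 ± 0.08, adjusted p = 2.9e-05). Of 7 tested adrenal-like genes, Sfrp1 was higher and Hpgd and Mc2r lower. Cyp11b1, an adrenal hydroxylase, ranged over 0.228 to 3.21 CPM at E13.5 and 0.448 to 19.4 CPM at E15.5 and did not pass (1.95 ± 1.14, adjusted p = 0.24). Among steroid receptors, Esr1, estrogen receptor alpha, rose from 25.9 ± 3.68 to 61.7 ± 7.56 CPM (1.25 ± 0.12, adjusted p = 0.00012) and Nr3c1, the glucocorticoid receptor, from 60.3 ± 2.83 to 81.5 ± 12.3 CPM (0.44 ± 0.10, adjusted p = 0.013). In that list of 11, 4 were higher and 2 lower.

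Genes of cholesterol synthesis, which feeds steroid production, were more often higher. Of 32 tested, 10 were called higher and 2 lower, with a median of 0.51. Without WT E15.5 replicate 3, 8 were higher and 2 lower (median 0.28), where all genes had 14.3% higher and 14.4% lower. Without that library and WT E13.5 replicate 4, 13 were higher and 2 lower (median 0.36), and with the GC offset 16 were higher and 1 lower. Sqle, squalene epoxidase, rose from 121 ± 7.86 to 192 ± 28.3 CPM (0.67 ± 0.10, adjusted p = 0.0012), and Lss, which closes the sterol rings, from 63.4 ± 9.64 to 130.3 ± 43.8 CPM (1.04 ± 0.20, adjusted p = 0.0042). Sc5d and Nsdhl, enzymes of the later steps, rose by 0.71 and 0.59 on the log2 scale. Abca1, which exports cholesterol, fell from 299 ± 17.5 to 189.9 ± 9.42 CPM (-0.66 ± 0.07, adjusted p = 0.00015). The 250 bases before the start of Hmgcs1 and Msmo1, synthesis genes called higher (0.59 ± 0.19 and 1.04 ± 0.28), are shown from RefSeq (GRCm38.p6), because CCAAT boxes were frequent in this list. Hmgcs1 was called in 12 and Msmo1 in 17 of 20 alternative fits. Capitals mark CCAAT (or ATTGG on the other strand) and the sterol regulatory element letters TCACCCCAC, which do not overlap:
Hmgcs1 (chr13:119690101-119690350, plus strand): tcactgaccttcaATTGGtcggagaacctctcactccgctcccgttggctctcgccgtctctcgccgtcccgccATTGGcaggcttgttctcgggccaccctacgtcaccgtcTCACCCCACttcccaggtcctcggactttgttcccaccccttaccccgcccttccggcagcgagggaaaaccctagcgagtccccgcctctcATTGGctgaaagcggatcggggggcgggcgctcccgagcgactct
Msmo1 (chr8:64733579-64733828, minus strand): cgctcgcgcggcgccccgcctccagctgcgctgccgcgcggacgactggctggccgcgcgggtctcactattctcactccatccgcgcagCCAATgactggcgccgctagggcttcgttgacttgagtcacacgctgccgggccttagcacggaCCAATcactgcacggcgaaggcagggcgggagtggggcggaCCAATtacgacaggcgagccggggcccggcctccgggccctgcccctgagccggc
Both windows hold 3 CCAAT boxes. A CCAAT box was found in 67.7% of 31 promoters of the list's 23 matched genes and in 33.8% of all 32851 promoters of the same length. The exact letters TCACCCCAC, on either strand, were found in 3.23% of these 31 promoters, that of Hmgcs1 alone, and in 1.05% of all. No other form of the sterol element was searched, so the other promoters may hold one. Fatty acid genes were called at shares near those of all genes. Of 36 tested 3 were higher (8.33%) and 5 lower (13.9%), against 12.4% and 11.6% of all genes. Scd1, stearoyl-CoA desaturase (11.9 to 41.8 CPM, 1.81 ± 0.29, adjusted p = 0.0016), and Acsl4 (85.9 to 142 CPM, 0.72 ± 0.15, adjusted p = 0.0058) were among the higher genes.

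Stromal, myoid and matrix genes rose in larger shares than all genes. Of 31 interstitial progenitor and stromal genes tested, 14 were called higher and 5 lower (median 0.36). Dcn, the small proteoglycan that binds collagen (chromosome 10, 97479609 to 97518143, plus strand), was at 166, 186, 184 and 158 CPM at E13.5 and 672, 619, 462 and 715 CPM at E15.5, with no overlap (log2 fold change 1.83 ± 0.12, adjusted p = 1.9e-05). Ogn, a related proteoglycan, rose from 19.9 ± 2.78 to 108 ± 36.1 CPM (2.44 ± 0.23, adjusted p = 0.00011), Mfap4, of elastic fibres, from 203 ± 21.2 to 455 ± 44.9 CPM (1.16 ± 0.09, adjusted p = 3.9e-05), and the chemokine Cxcl12 from 355 ± 32.9 to 655 ± 91.4 CPM (0.89 ± 0.11, adjusted p = 0.00034). Among the decreases was Vcam1, an adhesion molecule (35.3 to 15.2 CPM, -1.21 ± 0.18). The progenitor regulator Nr2f2, COUP-TFII, was at 392, 461, 395 and 335 CPM at E13.5 and 403, 441, 341 and 490.4 CPM at E15.5 and was not called (0.08 ± 0.12, adjusted p = 0.65). Tcf21 was lower (-0.48 ± 0.13, adjusted p = 0.024), a call lost without any 1 of 4 libraries, WT E13.5 replicate 1 or 2 or WT E15.5 replicate 1 or 4, where the adjusted p was 0.051 to 0.072.

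Of 23 contractile genes of peritubular myoid and smooth muscle cells, 11 were called higher and 4 lower (median 0.33). Their summed level overlapped between the ages, at 5099 to 5473 CPM at E13.5 and 4605 to 5821 CPM at E15.5. Acta2, smooth muscle actin, was at 112, 140.2, 142 and 161 CPM at E13.5 and 244, 321, 192 and 206 CPM at E15.5 (log2 fold change 0.80 ± 0.16, adjusted p = 0.0053). Myh11, smooth muscle myosin, was at 28.3, 34.5, 35.6 and 32.8 CPM at E13.5 and 155, 146, 63.5 and 104 CPM at E15.5, its lowest E15.5 library above its highest E13.5 library (log2 fold change 1.83 ± 0.23, adjusted p = 0.00048). Tagln, transgelin, rose from 13.47 ± 2.59 to 35.05 ± 14.2 CPM (1.38 ± 0.25, adjusted p = 0.0032), Actg2, gamma smooth muscle actin, from 1.10 ± 0.138 to 5.24 ± 2.29 CPM (2.25 ± 0.32, adjusted p = 0.0009), and Aoc3, an amine oxidase of smooth muscle, from 6.37 ± 1.37 to 24.7 ± 10.6 CPM (1.95 ± 0.28, adjusted p = 0.00096). Itga8, an integrin subunit, fell from 124 ± 14.4 to 36.4 ± 8.33 CPM (-1.76 ± 0.15, adjusted p = 6.4e-05). Tpm1 and Smtn, also muscle genes, were called lower, but Tpm1 lost the call in 4 of 19 alternatives and Smtn with the GC offset (adjusted p = 0.48).

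Matrix genes followed. Of 48 basement membrane and matrix genes tested, 24 were higher and 5 lower (median 0.42). Lama2, the laminin chain of muscle-type basement membranes (chromosome 10, 26980036 to 27619758, minus strand), rose from 144 ± 24.6 to 654 ± 167 CPM (2.19 ± 0.19, adjusted p = 5.8e-05). Col1a1, the main fibrillar collagen chain, rose from 631 ± 47.7 to 1435 ± 286 CPM (1.19 ± 0.13, adjusted p = 0.0002), Col6a2, of beaded filaments, from 210.1 ± 22.1 to 490.2 ± 86.5 CPM (1.22 ± 0.13, adjusted p = 0.00015), and Fbln5, of elastic fibres, from 29.2 ± 3.27 to 77.0 ± 15.8 CPM (1.402 ± 0.15, adjusted p = 0.00018). Col18a1, a basement membrane collagen, moved against the list, from 544 ± 83.2 to 218 ± 26.2 CPM (-1.32 ± 0.12, adjusted p = 8.9e-05), as did Fbln2 (409.8 to 194 CPM, -1.08 ± 0.15) and Spon1, spondin 1 (54.7 to 37.0 CPM, -0.56 ± 0.13). Col4a1 and Vcan, both abundant, were not called (0.07 ± 0.07 and 0.14 ± 0.09). Outside the list, the cartilage collagens Col2a1 and Col9a1 were the largest decreases by rule. Col2a1 was at 32.7, 24.0, 27.2 and 21.8 CPM at E13.5 and 0.656, 0.542, 0.993 and 0.846 CPM at E15.5 (log2 fold change -5.13 ± 0.21, adjusted p = 8.5e-07), and Col9a1 went from 17.9 ± 5.54 to 0.488 ± 0.219 CPM (-5.19 ± 0.34, adjusted p = 1.7e-05). Both are known targets of SOX9 in cartilage. Which cells held their RNA here, and any part of Sox9 in the decreases, was not tested. Among matrix proteases, 8 of 27 were higher and 8 lower. The aggrecanase Adamts5 rose from 60.7 ± 9.35 to 248 ± 62.1 CPM (2.03 ± 0.17, adjusted p = 5.8e-05) and Adamts19 from 32.6 ± 5.06 to 103 ± 32.9 CPM (1.65 ± 0.21, adjusted p = 0.00049). Mmp15, a membrane-anchored protease, fell from 45.8 ± 6.42 to 11.1 ± 1.60 CPM (-2.04 ± 0.13, adjusted p = 1.7e-05) and Plat, tissue plasminogen activator, from 68.5 ± 6.30 to 28.8 ± 5.03 CPM (-1.25 ± 0.12, adjusted p = 0.00012).

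**Figure D4:**
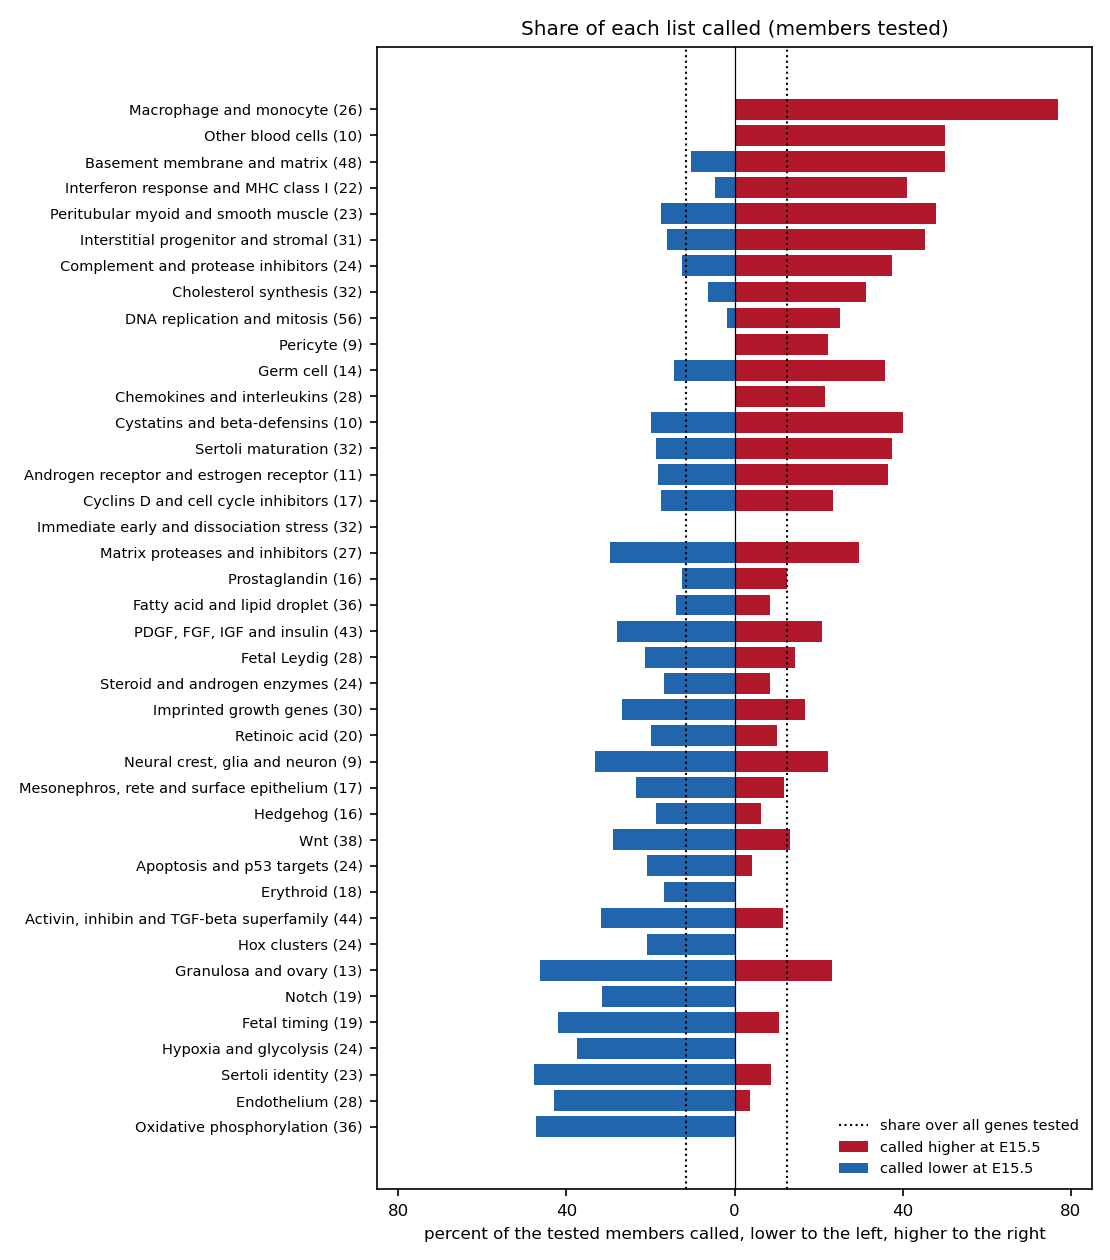
For each gene list with at least 9 tested members (number in brackets), bars to the right give the percentage called higher at E15.5 and bars to the left the percentage called lower, with dotted lines at the shares of all genes (12.4% and 11.6%). The macrophage list reaches furthest right (76.9%) and the Sertoli identity list furthest left (47.8%).

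Most macrophage markers rose, and several vessel markers fell. Of 26 tested macrophage and monocyte genes, 20 were called higher and 0 lower by edgeR (median 1.27), the highest share of any list with at least 9 tested members, and their summed level was 111 to 144 CPM at E13.5 and 250.2 to 493 CPM at E15.5. Csf1r, the receptor for macrophage colony-stimulating factor, was at 14.3, 14.4, 15.7 and 14.6 CPM at E13.5 and 21.7, 22.5, 42.5 and 30.1 CPM at E15.5 (log2 fold change 0.98 ± 0.19, adjusted p = 0.0049). Lyz2, lysozyme, rose from 10.8 ± 1.59 to 104 ± 74.5 CPM (3.27 ± 0.41, adjusted p = 0.00043), Ctss, cathepsin S, from 4.42 ± 0.358 to 15.7 ± 4.80 CPM (1.83 ± 0.22, adjusted p = 0.00036), and F13a1, a coagulation factor of tissue macrophages, from 6.20 ± 1.21 to 17.5 ± 4.21 CPM (1.49 ± 0.21, adjusted p = 0.00085). C1qb and Cd68 were not called (0.61 ± 0.37 and -0.07 ± 0.30). All but 1 of the 12 largest increases by rule were products of neutrophils and related genes. Ngp, neutrophilic granule protein, was at 0.228, 0.264, 0.240 and 0.281 CPM at E13.5 and 15.6, 16.2, 7.94 and 107 CPM at E15.5, and S100a8, a calprotectin subunit, at 2.34, 0.705, 0.814 and 2.42 CPM at E13.5 and 46.8, 38.9, 29.4 and 174 CPM at E15.5. WT E15.5 replicate 4 was the highest in both, and the other E15.5 libraries were still above every E13.5 library (7.14 ± 1.03 and 5.57 ± 0.68, adjusted p = 0.00096 and 0.00039). S100a9, Lcn2, Ltf, Olfm4, BC100530 and the stefin genes Stfa1, Stfa2, Stfa3 and Stfa2l1 gave log2 fold changes of 4.22 to 8.36. The stefin genes are near-identical and can share reads. Other blood cell markers had 5 of 10 tested genes higher and 0 lower, with the summed level at 698 CPM in WT E15.5 replicate 4.

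Endothelial genes had 12 of 28 lower and 1 higher (median -0.66). Aplnr, the apelin receptor of sprouting vessels, fell from 32.0 ± 8.33 to 10.1 ± 2.13 CPM (-1.65 ± 0.21, adjusted p = 0.00043), and Tie1, an endothelial kinase, from 10.4 ± 3.24 to 3.17 ± 1.05 CPM (-1.71 ± 0.29, adjusted p = 0.0023). Emcn and Cldn5, a sialomucin and a tight junction protein of vessels, changed by -1.22 and -1.45 on the log2 scale. Pecam1, the pan-endothelial adhesion molecule, was at 42.1, 23.8, 41.3 and 30.3 CPM at E13.5 and 24.9, 22.4, 15.7 and 31.7 CPM at E15.5 and was not called (-0.54 ± 0.22, adjusted p = 0.1), nor was Cdh5, VE-cadherin (0.32 ± 0.21). Lyve1, shared by lymphatic vessels and macrophages, was the gene called higher (0.941 to 3.77 CPM, 2.00 ± 0.23, adjusted p = 0.00025). Among 9 tested pericyte genes Rgs5, a regulator of G protein signalling, rose from 29.7 ± 3.36 to 97.2 ± 25.4 CPM (1.71 ± 0.17, adjusted p = 0.00012), and Cspg4 was called with the call lost in 8 of 19 alternatives. Embryonic globins of primitive red cells fell. Hbb-y was at 2359.8, 1863, 1891 and 12304 CPM at E13.5 and 2.899, 19.5, 425 and 162 CPM at E15.5, with WT E13.5 replicate 4 far above the rest (log2 fold change -4.92 ± 1.26, adjusted p = 0.017). Without that library and WT E15.5 replicate 3 the log2 fold change was -5.06 (adjusted p = 0.0053), and that of Hba-x -4.46 (adjusted p = 0.00047), and with robust fitting the Hbb-y and Hba-x calls were lost (adjusted p = 0.083 and 0.053). Hba-x and Hbb-bh1 were the other erythroid genes called lower of 18, with 0 higher, while the adult-type Hbb-bs and Hbb-bt were not called (0.56 ± 0.93 and 0.31 ± 0.93).

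Markers of further cell types changed in both directions. Of 14 tested germ cell genes 5 were higher (35.7%) and 2 lower (14.3%), against 12.4% and 11.6% of all genes. Dazl, a germ cell RNA-binding protein, ranged over 0.228 to 1.05 CPM at E13.5 and 3.46 to 8.82 CPM at E15.5 (log2 fold change 3.13 ± 0.42, adjusted p = 0.00071), and Ddx4, the vasa helicase, over 1.25 to 2.85 CPM at E13.5 and 4.08 to 5.26 CPM at E15.5, a call lost in the fit on 15 libraries (adjusted p = 0.086). The part of remaining germ cells in other results was not tested. Mesonephric, rete and surface epithelium genes had 2 of 17 higher (11.8%, near the share of all genes) and 4 lower (23.5%). Among the latter Emx2, a transcription factor of the early gonad and its surface, fell from 57.3 ± 5.76 to 24.0 ± 3.24 CPM (-1.26 ± 0.11, adjusted p = 6.4e-05). Neural crest, glial and neuronal genes had 2 of 9 higher (22.2%) and 3 lower (33.3%). Erbb3, a neuregulin receptor, fell from 56.8 ± 9.59 to 12.5 ± 1.64 CPM (-2.18 ± 0.14, adjusted p = 1.7e-05). Granulosa and ovary genes had 3 of 13 higher (23.1%) and 6 lower (46.2%), where Fshr and Nr0b1 also stand in the Sertoli lists. Wnt4, of the ovarian pathway, rose from 37.9 ± 3.88 to 67.8 ± 11.9 CPM (0.84 ± 0.13, adjusted p = 0.0013) and Lef1, a Wnt effector, fell from 15.4 ± 3.01 to 5.91 ± 1.13 CPM (-1.38 ± 0.18, adjusted p = 0.00065).

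Among ligands of the TGF-beta superfamily, Inhba rose while Amh fell. Inhba, the activin beta A subunit (chromosome 13, 16011851 to 16031621, plus strand), was at 45.8, 106, 77.6 and 67.1 CPM at E13.5 and 338, 289, 197 and 348 CPM at E15.5. The ages did not overlap, with a fitted fold of 3.94 (log2 fold change 1.98 ± 0.24, adjusted p = 0.0004). Inhbb, the beta B subunit, was at 101, 82.2, 98.9 and 96.0 CPM at E13.5 and 80.4, 86.4, 88.7 and 65.3 CPM at E15.5 and Inha at 50.2, 59.7, 67.8 and 68.5 CPM at E13.5 and 70.1, 77.0, 136 and 57.6 CPM at E15.5, and neither was called (-0.24 ± 0.10 and 0.47 ± 0.23). Per kilobase of exon the mean levels at E13.5 and E15.5 were 11.6 to 45.8 CPM for Inhba, 22.2 to 18.8 for Inhbb and 41.7 to 57.8 for Inha. Fst, follistatin, which binds activin, was at 0.627, 0.661, 1.44 and 1.13 CPM at E13.5 and 0.930, 2.92, 2.34 and 3.58 CPM at E15.5. Its call (adjusted p = 0.04) was lost in 8 of 19 alternatives. Among receptors, Acvr1c (ALK7) fell from 8.09 ± 2.79 to 2.23 ± 0.326 CPM (-1.85 ± 0.24, adjusted p = 0.00061) and Acvrl1 (ALK1) rose from 17.1 ± 4.40 to 34.8 ± 4.59 CPM (1.03 ± 0.18, adjusted p = 0.0025). Inhibitors and targets called lower included Bambi, a pseudoreceptor (54.3 to 37.0 CPM, -0.55 ± 0.07), the inhibitory Smad6 (17.9 to 9.08 CPM, -0.98 ± 0.14) and Id2, a BMP target (108 to 47.9 CPM, -1.18 ± 0.15), while the follistatin-like Fstl1 was higher (552 to 762 CPM, 0.46 ± 0.09). Of 44 tested, 5 were higher (11.4%) and 14 lower (31.8%), against 12.4% and 11.6% of all genes, with a median of -0.23.

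Of the hedgehog genes the ligand Dhh fell, and the targets Ptch1 and Gli1 were not called. Of 16 tested, Cdon, a co-receptor, was higher (199 to 289 CPM, 0.54 ± 0.10, adjusted p = 0.003) and Dhh, Hhip and Sufu lower, the last not with the GC offset (adjusted p = 0.11). These are 6.25% higher and 18.8% lower, against 12.4% and 11.6% of all genes. Ptch1, receptor and standard target, was at 634, 647, 656 and 619 CPM at E13.5 and 630.0, 687, 639.6 and 662 CPM at E15.5. Gli1, also a target, was at 44.9, 53.4, 51.9 and 39.7 CPM at E13.5 and 53.1, 57.4, 53.6 and 54.3 CPM at E15.5. Neither Ptch1 nor Gli1 was called, with log2 fold changes of 0.03 ± 0.06 and 0.20 ± 0.10. Notch genes had 0 of 19 higher by edgeR and 6 lower, among them Dll4, a ligand of vessel tips (4.68 to 2.24 CPM, -1.06 ± 0.21, adjusted p = 0.0051), and Hey1, a target (21.2 to 13.1 CPM, -0.70 ± 0.16, adjusted p = 0.012). With the GC offset the Notch counts were 4 higher and 2 lower and the median moved from -0.14 to 0.06. In the Wnt list, 5 of 38 were higher (13.2%) and 11 lower (28.9%), against 12.4% and 11.6% of all genes. Dkk1, a secreted inhibitor, was at 26.5, 21.7, 25.9 and 22.5 CPM at E13.5 and 2.08, 3.37, 1.46 and 3.33 CPM at E15.5 (log2 fold change -3.21 ± 0.23, adjusted p = 2.3e-05). Lgr5, an R-spondin receptor, fell from 56.5 ± 11.7 to 31.1 ± 3.96 CPM (-0.86 ± 0.15, adjusted p = 0.0027), and the inhibitors Dkk3 (0.69 ± 0.09) and Sfrp1 (0.47 ± 0.08) rose. Wnt5a, the most abundant ligand named, was not called (463 CPM at both ages).

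Among 43 growth factor genes of the PDGF, FGF, IGF and insulin families, 9 were higher and 12 lower. Besides Igf1 and Igf2, Fgf7, keratinocyte growth factor, rose from 0.868 ± 0.341 to 4.07 ± 1.32 CPM (2.24 ± 0.34, adjusted p = 0.0013) and Fgf2 from 61.6 ± 10.98 to 105 ± 15.4 CPM (0.77 ± 0.14, adjusted p = 0.0033). Figf, VEGF-D, was 1 of the 6 increases with the smallest p (34.1 to 79.0 CPM, 1.21 ± 0.07, adjusted p = 1.4e-05), while Vegfa fell (117 to 74.7 CPM, -0.65 ± 0.10, adjusted p = 0.0013). Etv5 and Spry4, which FGF signalling induces, were lower (-0.78 ± 0.09 and -0.64 ± 0.10). In retinoid metabolism, Cyp26b1, which degrades retinoic acid and keeps germ cells from meiosis, was at 319.9, 239.9, 307 and 321 CPM at E13.5 and 124, 127, 188 and 135 CPM at E15.5 (log2 fold change -1.05 ± 0.14, adjusted p = 0.00066). Aldh1a1, a retinaldehyde dehydrogenase, was at 903, 927, 1202 and 1117 CPM at E13.5 and 1313, 1285, 1582 and 1293 CPM at E15.5. The call of its increase (0.40 ± 0.10, adjusted p = 0.019) was lost when WT E13.5 replicate 1 was left out (adjusted p = 0.068) and with 15 libraries (0.17). Lrat, which stores retinol, rose from 2.02 ± 1.05 to 8.07 ± 2.59 CPM (1.98 ± 0.38, adjusted p = 0.0046). The retinoic acid list had 2 of 20 higher and 4 lower, against 12.4% and 11.6% of all genes. Of 16 prostaglandin genes 2 were higher (Ptgis and Ptges, log2 0.99 ± 0.12 and 0.69 ± 0.14) and 2 lower (Hpgd and Ptger1, -0.96 ± 0.17 and -0.71 ± 0.14). Both prostaglandin shares, 12.5% in each direction, were near those of all genes.

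Of 56 tested genes of DNA replication and mitosis, 14 were higher and 1 lower, 41 were not called, and the median was 0.09. Mki67, the proliferation marker, was at 1437, 1687, 1500.3 and 1542 CPM at E13.5 and 1997, 1934, 1748 and 2125 CPM at E15.5 (log2 fold change 0.34 ± 0.07, adjusted p = 0.0083). Kif23 and Kif11, spindle motors, rose from 152 ± 8.45 to 208 ± 14.5 CPM (0.46 ± 0.07, adjusted p = 0.0015) and from 189 ± 6.53 to 247 ± 30.4 CPM (0.38 ± 0.09, adjusted p = 0.0099). Mcm6, of the replication helicase, was not called (0.06 ± 0.09). Rrm2 was the lower gene, and its call was lost in 9 of 19 alternatives. The promoter of Top2a, the mitotic topoisomerase (log2 fold change 0.29 ± 0.09), called in 13 of 20 alternative fits, is shown for its density of CCAAT boxes, in capitals on either strand (RefSeq, GRCm38.p6):
Top2a (chr11:99024190-99024439, minus strand): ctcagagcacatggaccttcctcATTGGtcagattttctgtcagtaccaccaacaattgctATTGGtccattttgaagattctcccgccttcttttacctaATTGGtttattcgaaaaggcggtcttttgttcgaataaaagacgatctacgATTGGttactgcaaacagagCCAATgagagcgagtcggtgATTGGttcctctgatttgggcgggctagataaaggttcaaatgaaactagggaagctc
It holds 6, and 67.3% of the 52 promoters of 47 matched mitotic genes hold at least 1, against 33.8% of all. Cyclins and inhibitors changed singly. Cdkn2c, the inhibitor p18, rose from 4.09 ± 0.693 to 13.7 ± 1.44 CPM (1.75 ± 0.16, adjusted p = 7.7e-05) and Ccnd2, cyclin D2, from 304 ± 13.03 to 462 ± 38.9 CPM (0.60 ± 0.07, adjusted p = 0.00036), while Ccnd1 (22.8 to 10.5 CPM, -1.12 ± 0.19, adjusted p = 0.0026) and Cdk4 (199.8 to 139 CPM, -0.52 ± 0.08, adjusted p = 0.0016) fell. Of the 17 tested, 4 were higher (23.5%) and 3 lower (17.6%), against 12.4% and 11.6% of all genes.

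Several genes of energy metabolism were lower by small steps. Of 36 tested oxidative phosphorylation genes, 17 were lower and 0 higher by edgeR (median -0.26), and 12 and 0 with the GC offset. Atp5b, an ATP synthase subunit, went from 809 ± 43.8 to 621 ± 57.0 CPM (-0.38 ± 0.08, adjusted p = 0.0056), and Ndufa4 from 156 ± 19.7 to 108 ± 4.06 CPM (-0.53 ± 0.09, adjusted p = 0.0026). The mitochondrially encoded mt-Co1 and mt-Nd5 were not called (6387 to 6382 CPM and 4069 to 4059 CPM). Of 24 hypoxia and glycolysis genes 9 were lower and 0 higher, led by Vegfa and by Slc2a1, the glucose transporter (84.6 to 51.7 CPM, -0.71 ± 0.14, adjusted p = 0.0048), with 5 lower under the GC offset. Apoptosis and p53 genes had 1 of 24 higher (4.17%) and 5 lower (20.8%), against 12.4% and 11.6% of all genes. The lower genes included Trp53 itself (69.1 to 48.8 CPM, -0.50 ± 0.10, adjusted p = 0.0057). Immediate early and dissociation genes had 0 of 32 called in either direction by edgeR (median -0.04). Without WT E15.5 replicate 3, 3 were lower (median -0.66), and without it and WT E13.5 replicate 4, 1 was higher and 2 lower (median 0.00). In every list given here with 0 genes in a direction over the 8 libraries, DESeq2 and limma-voom also called 0, and at most 1 had an unadjusted p under 0.05.

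Immune and secreted defence genes were more often higher. Ccl17, a chemokine, rose from 6.76 ± 3.19 to 76.5 ± 14.4 CPM (3.49 ± 0.26, adjusted p = 3e-05), the largest change in a list with 6 of 28 higher and 0 lower. The antigen-presenting genes H2-K1 (6.28 to 19.03 CPM, 1.59 ± 0.27, adjusted p = 0.0025), H2-D1 (4.06 to 11.2 CPM, 1.46 ± 0.23, adjusted p = 0.0016) and B2m (140.3 to 213 CPM, 0.60 ± 0.10, adjusted p = 0.0026) rose in a list of 22 with 9 higher and 1 lower. Complement and protease inhibitor genes had 9 of 24 higher and 3 lower, with C3, the central complement component, rising from 2.43 ± 0.380 to 21.1 ± 11.9 CPM (3.13 ± 0.34, adjusted p = 0.00021). Thbd, thrombomodulin, rose from 143 ± 12.05 to 287 ± 33.2 CPM (1.01 ± 0.10, adjusted p = 0.0001). The macrophage and neutrophil markers rose beside these lists, and their part was not tested. Hox genes had 0 of 24 higher and 5 lower, with Hoxa5 (4.27 to 2.10 CPM, -1.02 ± 0.25, adjusted p = 0.013) and Hoxa3 (2.905 to 0.975 CPM, -1.56 ± 0.35, adjusted p = 0.0095) called in all alternatives but the 16-library fit. The calls of Hoxa2, Hoxa6 and Hoxd3 were lost in 4 to 8 of 19. Hoxa3 overlaps Hoxa5 and Hoxa6 on the same strand, so the assignment of reads among them is uncertain.

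Some genes had low values at 1 age and clear values at the other. Taking under 0.5 CPM in all 4 libraries of one age and at least 2 CPM in all 4 of the other, 10 genes came on and 1 went off. The former were Ngp, Stfa1, Stfa2l1, Ltf, Stfa3, Lcn2, Stfa2, Frmpd4, RP23-52J10.4 and Zg16. Frmpd4, a synaptic scaffold protein, was at 0.171, 0.440, 0.240 and 0.338 CPM at E13.5 and 5.80, 4.29, 3.56 and 5.13 CPM at E15.5. Oprd1, the delta opioid receptor, was the gene that went off, at 2.28, 3.35, 2.63 and 2.81 CPM at E13.5 and 0.219, 0.250, 0.409 and 0.199 CPM at E15.5. Further named decreases were Ctrb1, chymotrypsinogen B, from 33.1 ± 5.67 to 2.27 ± 0.512 CPM (-3.87 ± 0.19, adjusted p = 2.4e-06), Npbwr1, a neuropeptide receptor, from 8.05 ± 2.39 to 0.464 ± 0.251 CPM (-4.14 ± 0.37, adjusted p = 7.4e-05), Gjb2, connexin 26, from 30.6 ± 4.80 to 4.41 ± 1.01 CPM (-2.80 ± 0.17, adjusted p = 1.4e-05) and Srgap1, a regulator of small GTPases, from 93.6 ± 1.16 to 42.1 ± 2.75 CPM (-1.15 ± 0.07, adjusted p = 1.2e-05). Slc9a2, a sodium and proton exchanger, Mall and Tal1 gave log2 fold changes of -3.53, -2.72 and -2.71. Further increases among the smallest p were AF529169 (2.65 to 15.6 CPM, 2.56 ± 0.15, adjusted p = 1.2e-05), Lin7a, a polarity scaffold protein (0.593 to 9.92 CPM, 4.05 ± 0.27, adjusted p = 1.7e-05), and Arsj, a sulfatase (0.731 to 8.11 CPM, 3.47 ± 0.24, adjusted p = 1.9e-05).

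The design also lets the normal age change be set beside that without Inhba. This used 15 libraries in a model with an interaction term, and CPM values of this comparison are scaled over all 16. The model took no account of the leading title numbers that some E15.5 libraries share. KO E13.5 replicate 1 was left out, since the 26 germ cell genes took 4217 of each 1000000 of its counts, against 45.9 to 105 in the others. The difference of the age change was called for 18 of 20406 genes (0.0882%), 12 with the larger value in WT and 6 with the smaller, and 1429 had an unadjusted p under 0.05. The number was 79 by DESeq2 and 7 by limma-voom, and leaving out single libraries gave 4 (without KO E13.5 replicate 2) to 25 (without WT E15.5 replicate 4). Called for age were 4655 genes in WT and 4350 in KO (21.3% of those tested). Of these, 2634 were called in both, 56.6% of the WT and 60.6% of the KO calls, and 2626 of them had the same direction. AF529169 was at 2.16 to 3.06 CPM in WT E13.5 and 13.9 to 16.9 CPM in WT E15.5, against 2.17 to 3.66 and 1.45 to 2.46 CPM in KO. Its age change was 2.57 ± 0.19 in WT and -0.48 ± 0.23 in KO (difference 3.05 ± 0.30, adjusted p = 0.00023). Ccl17 changed by 3.496 ± 0.28 in WT and -0.51 ± 0.39 in KO (difference 4.01 ± 0.48, adjusted p = 0.0022) and Serpina5 by 3.02 ± 0.26 in WT and 0.31 ± 0.30 in KO (2.70 ± 0.39, adjusted p = 0.013). Gja1, not called for age in WT, was lower at E15.5 in KO, with changes of 0.13 ± 0.11 in WT and -0.92 ± 0.12 in KO (1.05 ± 0.17, adjusted p = 0.025). Slc38a5, an amino acid transporter, went opposite ways, 0.68 ± 0.15 in WT and -0.85 ± 0.17 in KO (1.53 ± 0.22, adjusted p = 0.013), and Lama3, a laminin chain, rose in WT (0.76 ± 0.11 in WT and -0.21 ± 0.12 in KO, 0.96 ± 0.16, adjusted p = 0.028). Ccnd2, Socs2, Pdgfa, Sel1l3, Miox and Rnf19b completed the 12.

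The 6 genes with a negative difference included decreases that were smaller in KO. Slc9a2 changed by -3.52 ± 0.31 in WT and -0.74 ± 0.28 in KO (difference -2.78 ± 0.42, adjusted p = 0.015), Erbb3 by -2.18 ± 0.16 in WT and -0.82 ± 0.16 in KO (-1.36 ± 0.22, adjusted p = 0.028), Gjb2 by -2.79 ± 0.15 in WT and -1.54 ± 0.15 in KO (-1.25 ± 0.21, adjusted p = 0.028) and Npbwr1 by -4.14 ± 0.39 in WT and -1.31 ± 0.33 in KO (-2.82 ± 0.52, adjusted p = 0.049). Cttnbp2, a cortactin-binding protein, fell in WT and rose in KO (-0.54 ± 0.19 in WT and 1.56 ± 0.22 in KO, -2.10 ± 0.29, adjusted p = 0.0086), and its call for age in WT was lost in 5 of 19 alternatives (adjusted p = 0.057 to 0.095). Gm43843 was the sixth, and lies within Cttnbp2 on the same strand, so the assignment of reads between the pair is uncertain. With all 16 libraries AF529169, Ccl17, Cttnbp2 and Gm43843 were the genes called. None of the following differences was called. Hmga2 changed by -2.65 ± 0.12 in WT and -1.81 ± 0.12 in KO (adjusted p of the difference 0.069) and Hsd17b1 by 2.29 ± 0.27 in WT and 0.14 ± 0.32 in KO (0.069). A difference that misses the threshold does not show that the changes are alike.

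**Figure D5:**
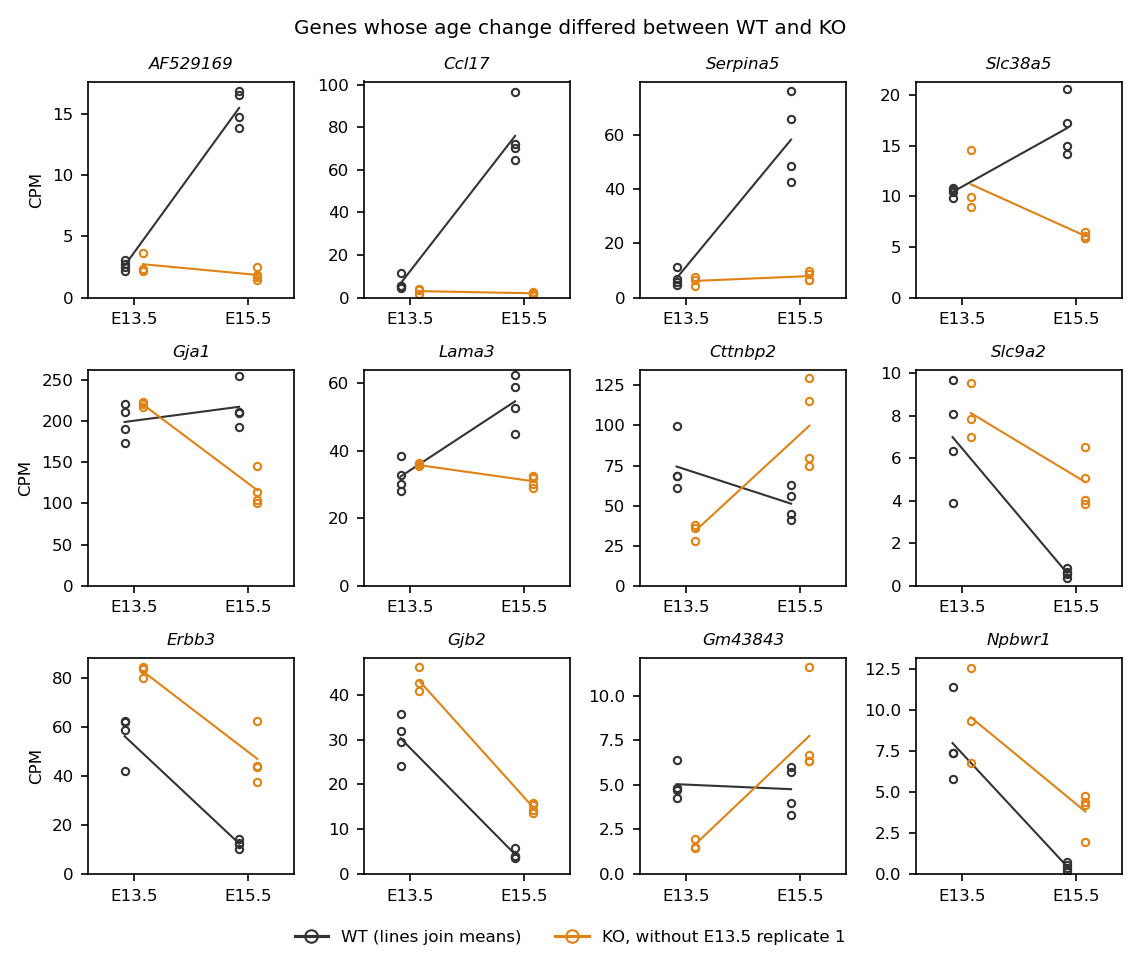
For 12 of the 18 genes whose age change differed, the level in each library is plotted in CPM at E13.5 and E15.5, WT in black and KO in orange without KO E13.5 replicate 1, with lines joining the means. The WT line climbs and the KO line does not for AF529169 and Ccl17, and for Slc9a2, Erbb3, Gjb2 and Npbwr1 both lines descend with KO above WT at E15.5.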

How the data were processed

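The authors deposited 1 table of raw read counts, with 47729 gene identifiers as rows and whole numbers as values. The submitters' processing notes name STAR 2.5.2b, featureCounts and Subread 1.5.2 with the build GRCm38, and FastQC 0.11.5, MultiQC 1.0 and Picard 2.9.0 for quality. By its name the table was counted without strand, so overlapping and antisense genes cannot be told apart. Gene positions were taken from an annotation of GRCm38 that matched 47310 identifiers (99.1%). Where a symbol had 2 rows (Itgam, Ltbp4, Ccl19 and Ccl21a), the one with the higher mean was used.

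The 8 WT libraries alone entered the quasi-likelihood test of edgeR 4.0.16 (R 4.3.3). Genes were filtered with filterByExpr, libraries scaled by TMM and p-values adjusted by Benjamini-Hochberg at 0.05. Each SE was computed as the size of the log2 fold change over the root of its F statistic. CPM uses TMM-scaled library sizes. Fits were tested on simulated counts. Total counts of 17118853 to 23324810 leave genes near 0.5 CPM least precise. The 12 pairs of libraries within an age differed by 8.79 to 28.4 times the sampling noise (chi-square per degree of freedom). That is more than a repeat sequencing of 1 library would give, and each library was counted as 1 sample. Libraries of the same animal could also differ in this way, so the values do not show that the animals differ.

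The members and lists were chosen with earlier results of these data known. The lists are 42 with 1073 symbols, 919 tested. Named genes were, per direction, the 12 called with the greatest change (mean of at least 5 CPM, no overlap between ages, no provisional symbols), the 6 called with the smallest p, up to 5 called and 2 uncalled members of each list, and chosen core genes. Some of these are not reported here. The 16-library fit includes KO E13.5 replicate 1 and the 15-library fit leaves it out. Alternatives were scaling by RLE or upper quartile, other filters, DESeq2 1.42.0, limma-voom (limma 3.58.1), robust fitting and leaving out single libraries. Offsets for GC content and gene span, and the fit on 6 libraries, were added after seeing the data.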

Additional observations from a re-analysis of the deposited data

Results flagged for a closer look

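In 29 of 156 groups of 4 values checked (18.6%), 1 library lay apart from the other 3 by Dixon's criterion. Chance meets it in about 1 of 20 groups of independent, normally distributed values. Many groups here are CPM values of genes that vary together, so the 18.6% cannot be read against that rate. WT E15.5 replicate 4 was the highest in genes of neutrophils. It had 372 CPM for S100a9 against 46.1 to 78.2 CPM in the others, 174 CPM for S100a8 against 29.4 to 46.8 CPM, 107 CPM for Ngp against 7.94 to 16.2 CPM and 48.1 CPM for Stfa2l1 against 4.15 to 10.6 CPM. In the same library the values were 43.8 CPM for BC100530 against 4.73 to 10.6 CPM, 41.8 CPM for Ltf against 2.86 to 5.31 CPM, 38.7 CPM for Lcn2 against 2.57 to 5.71 CPM and 38.5 CPM for Stfa3 against 3.97 to 7.66 CPM. Olfm4 and Stfa2 completed the set, with 32.9 CPM for Olfm4 against 3.27 to 7.93 CPM and 27.4 CPM for Stfa2 against 4.21 to 6.67 CPM. The summed level of other blood cell markers there was 698 CPM against 171 to 205 CPM.

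WT E15.5 replicate 3 was the highest in genes of steroid synthesis. It had 378 CPM for Star against 90.1 to 137 CPM in the others, 596 CPM for Cyp11a1 against 159.5 to 212 CPM, 1059 CPM for Cyp17a1 against 352 to 417 CPM and 146 CPM for Lhcgr against 56.0 to 67.6 CPM. The summed fetal Leydig level was 5547 CPM against 2784 to 2981 CPM, the Sertoli maturation level 5791 CPM against 4924 to 5026 CPM, and Aldh1a1 stood at 1582 CPM against 1285 to 1313 CPM. Immediate early genes were also high in this library, and their part in these values was not tested.

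WT E13.5 replicate 4 had 12304 CPM for Hbb-y against 1863 to 2359.8 CPM in the others of its age and 194 CPM for Hba-x against 32.3 to 44.8 CPM, both embryonic globins. The summed erythroid level was 13710.1 CPM against 2226 to 2721 CPM, and Hsd3b6 was at 193 CPM against 32.8 to 43.1 CPM. Single values apart from their group were also found for low or moderate genes. These were 6.99 CPM for Insl3 against 4.67 to 4.84 CPM in WT E13.5 replicate 3, 239.9 CPM for Cyp26b1 against 307 to 321 CPM and 0.484 CPM for Ltf against 0.0479 to 0.113 CPM in WT E13.5 replicate 2, and 0.507 CPM for BC100530 against 0.0958 to 0.132 CPM in WT E13.5 replicate 4. At E15.5 they were 5.91 CPM for Gjb2 against 3.73 to 4.08 CPM and 344 CPM for H19 against 454 to 474 CPM in replicate 1. Sry was at 0.0498 CPM in WT E15.5 replicate 4 and at 0 in the other 3.

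The age change differed between WT and KO, by the interaction term of the 15-library fit, in the 12 genes named for it. As WT minus KO on the log2 scale the difference was 3.05 for AF529169, 4.01 for Ccl17, 2.70 for Serpina5, 1.53 for Slc38a5, 1.05 for Gja1 and 0.963 for Lama3. It was -2.10 for Cttnbp2, -2.78 for Slc9a2, -1.36 for Erbb3, -1.25 for Gjb2, -2.30 for Gm43843 and -2.82 for Npbwr1.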

How the results depend on the processing

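None of the 264 named genes called reversed its direction in any of the 20 alternative fits, while 40 of the 86 not called, Star among them, changed sign in at least 1. Of 264 named genes called, 203 stayed called in all 19 fits other than the one with 16 libraries, which called 122 of them and lost 142. With 16 libraries 834 genes were called higher and 530 lower, 640 at least 2-fold higher and 269 at least 2-fold lower, and the median SE was 0.272 against 0.16. Leaving out 1 WT library gave 1532 to 2787 genes higher, 1464 to 2803 lower, 735 to 1206 at least 2-fold higher and 333 to 526 at least 2-fold lower. Upper quartile normalization put 58.0% of calls higher against 51.6%. The difference between WT and KO was called for 79 genes by DESeq2, 7 by limma-voom, 4 with 16 libraries and 4 to 25 without single libraries, against 18. The GC offset turned the sign of 25 of 4560 calls. The cause of these shifts was not tested.

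Medians that turned sign without WT E15.5 replicate 3 included those of the fetal Leydig list (0.10 to -0.28) and the adrenal-like list (0.20 to -0.54). The median of the immediate early list was -0.04, 0.40 without WT E13.5 replicate 4 and -0.66 without WT E15.5 replicate 3. Genes under about 1 CPM are limited by depth: the Dppa4, Mael and Sall4 calls could not be fitted with a filter of 1 CPM. No paired analysis was possible because the labels give the ages no shared replicate numbers.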
